A study of Mus musculus with 19 samples.

Results

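The genes described here are the cytokines, chemokines and NF-kB genes with which macrophages (mφs) start an inflammatory response, followed in Kupffer cells (KCs), the resident mφs of the liver. They were listed by name, and a gene was measured if the array held a probeset paired with that gene symbol alone. Of 36 listed genes 35 were measured among 19938 genes in all, namely 16 cytokines and growth factors, 11 chemokines and 8 genes of NF-kB signalling and the inflammasome. Nfkb1 was not analysed here.

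NF-kB is a family of dimeric transcription factors held in the cytoplasm by inhibitors, and it enters the nucleus when receptors for microbial products, IL-1 or TNF are engaged. Its early targets include Tnf, Il1b and the chemokines Cxcl1, Cxcl2, Ccl3 and Ccl4, together with inhibitors such as Tnfaip3 that end the response. KCs line the liver sinusoids, meet gut-derived microbial products in portal blood and are a main source of these mediators in the liver.

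RNA from sorted KCs was hybridized to Mouse Gene 1.0 ST arrays of Affymetrix, 1 array per sample and 19 in all, to set KCs that descend from monocytes beside those of embryonic origin. All mice were on a C57Bl/6 background and 6 to 12 weeks old, and all KCs were sorted from collagenase-digested livers as Clec4F+ cells. In KC-DTR mice a cassette with YFP and the human diphtheria toxin (DT) receptor follows the coding part of Clec4f, so that 50 ng of DT kills the embryonic KCs (em-KCs), and monocyte-derived KCs (mo-KCs) fill the niche. Mo-KCs came from KC-DTR mice 15 days (3 arrays) or 30 days (5 arrays) after DT, and 11 arrays held em-KCs: 3 of KC-DTR mice without DT, 1 of a WT littermate without DT, 2 from WT littermates 15 days after 50 ng of DT, 2 from WT littermates 30 days after it and 3 from separate WT mice. The labels of these last 3 name no DT and do not say that the mice were untreated. The 8 em-KC arrays other than the 3 from WT mice are called colony em-KCs below. Arrays of a group are named biological replicates in the labels, and the sources used here do not say whether animals were pooled.

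On 6 arrays, the 3 of WT em-KCs and day 30 mo-KC replicates 3 to 5, the Y-linked gene Eif2s3y lay between 3.30 and 4.28 and Xist, the RNA of the inactive X chromosome, between 8.72 and 9.51 on the log2 scale. On the other 13 arrays Eif2s3y lay between 7.53 and 8.06 and Xist between 4.07 and 4.53. The study used male and female mice, but the sources used here give neither sex nor batch for single arrays. The arrays are called the 6 low-Y and the 13 high-Y arrays. Among em-KCs the low-Y arrays were all of the separate WT mice, so that mouse source, sex and any batch cannot be told apart there. The KC identity genes Vsig4 (12.71 to 13.03) and Cd5l (12.32 to 12.79) were high on all 19 arrays, while Timd4, a KC gene that mo-KCs gain late, ran from 7.88 to 12.02. With all 19 arrays and no block on array set, Clec4f was 2.39-fold and Spic 1.46-fold lower in day 30 mo-KCs than in em-KCs (adjusted p = 0.00016 and 0.013 from limma). The KC genes Clec1b, Adgre1, Csf1r, Nr1h3 and Id3 were not called there. All mo-KCs carried the cassette in Clec4f, but among em-KCs only those of KC-DTR mice did. The part of the cassette in the Clec4f value was not tested. Against colony em-KCs, Clec4f was 1.67-fold lower in day 30 replicates 1 and 2, which was not called (adjusted p = 0.152 from limma). Ratios of bulk RNA do not separate fewer expressing cells from less RNA per cell.

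The promoters of 24 of the 36 genes were found in the RefSeq table (build GRCm38.p6), each as a window of 250 bases before and 50 after the transcription start. The kappaB consensus, the site that NF-kB dimers bind, was searched on both strands and was present in 8.46% of the 32851 windows and for 9.55% of the 27025 genes with a window. Among the members 14 of 24 (58.3%) had at least 1 match. The windows below are shown because Cxcl1, Cxcl2 and Cxcl3 are paralogues on chromosome 5 that carry the same 11-base stretch but differed in their values, while Tnfaip3 and Il6 are an NF-kB inhibitor and a cytokine whose values are given later. Capitals mark the matches to the consensus.
Cxcl1 promoter, chr5:90890995-90891294, plus strand: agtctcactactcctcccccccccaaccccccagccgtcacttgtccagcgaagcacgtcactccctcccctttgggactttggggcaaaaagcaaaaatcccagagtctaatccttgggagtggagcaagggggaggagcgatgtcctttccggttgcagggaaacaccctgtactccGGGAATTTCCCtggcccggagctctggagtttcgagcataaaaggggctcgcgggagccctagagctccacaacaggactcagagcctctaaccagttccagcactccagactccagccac
Cxcl2 promoter, chr5:90903649-90903948, plus strand: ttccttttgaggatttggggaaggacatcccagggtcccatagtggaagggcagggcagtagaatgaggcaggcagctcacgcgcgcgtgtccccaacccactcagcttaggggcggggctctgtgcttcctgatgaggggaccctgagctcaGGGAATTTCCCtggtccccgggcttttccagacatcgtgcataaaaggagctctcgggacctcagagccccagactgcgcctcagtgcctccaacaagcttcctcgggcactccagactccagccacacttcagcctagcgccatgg
Cxcl3 promoter, chr5:90785851-90786150, plus strand: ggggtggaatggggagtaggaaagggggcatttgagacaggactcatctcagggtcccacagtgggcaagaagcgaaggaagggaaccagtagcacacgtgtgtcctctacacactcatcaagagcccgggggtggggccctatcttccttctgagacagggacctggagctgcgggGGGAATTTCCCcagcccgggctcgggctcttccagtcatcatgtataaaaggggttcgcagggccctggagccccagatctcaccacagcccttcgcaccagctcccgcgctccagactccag
Il6 promoter, chr5:30012864-30013163, plus strand: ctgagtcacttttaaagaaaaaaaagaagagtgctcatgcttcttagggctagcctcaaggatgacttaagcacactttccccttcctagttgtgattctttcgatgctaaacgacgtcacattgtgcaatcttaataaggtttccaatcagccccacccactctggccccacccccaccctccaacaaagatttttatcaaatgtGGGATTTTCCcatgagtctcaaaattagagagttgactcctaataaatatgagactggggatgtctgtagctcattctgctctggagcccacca
Tnfaip3 promoter, chr10:19015361-19015660, minus strand: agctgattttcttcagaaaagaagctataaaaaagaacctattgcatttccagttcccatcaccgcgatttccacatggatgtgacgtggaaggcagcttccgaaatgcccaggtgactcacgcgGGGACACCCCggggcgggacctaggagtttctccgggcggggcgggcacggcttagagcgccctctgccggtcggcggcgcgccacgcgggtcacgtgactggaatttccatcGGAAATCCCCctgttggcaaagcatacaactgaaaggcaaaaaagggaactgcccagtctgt
The stretch GGGAATTTCCC lay from -71 to -61 in Cxcl1, from -97 to -87 in Cxcl2 and from -73 to -63 in Cxcl3, counted from the start site as 0. It held overlapping matches on both strands. Tnfaip3 had 2 matches, and Il6 had 1, from -44 to -35. No match was found in the windows of Il1a, Il1b, Tnf, Ccl3, Ccl12, Il18, Il1rn, Il12a, Il12b or Cxcl9, which says only that the consensus letters are not in these 300 bases. The AP-1 motif TGANTCA, bound by Fos and Jun dimers and likewise searched on both strands, was present for 8 of the 24 members and for 8.97% of all genes with a window.

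The mean over the 35 members was lower on each of the 6 low-Y arrays than on any of the 13 high-Y arrays. It was 7.48, 7.62 and 7.46 on the log2 scale in WT em-KCs and 7.55, 7.58 and 7.56 in day 30 mo-KC replicates 3 to 5. On the high-Y arrays it was 7.85 to 8.09 (median 7.99) in the 8 colony em-KCs, 8.06, 8.24 and 8.24 in day 15 mo-KCs, and 8.18 and 8.0 in day 30 mo-KC replicates 1 and 2. The 5 day 30 arrays thus fell into 2 groups that did not overlap, and each lay near the other arrays of its own set. By role, chemokines stood farthest apart, at 7.64 to 8.0 on the low-Y and 8.33 to 8.98 on the high-Y arrays, whereas the cytokine means were 7.03 to 7.24 and 7.27 to 7.59. The NF-kB and inflammasome means were 7.94 to 8.07 and 8.28 to 8.73.

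**Figure D1:**
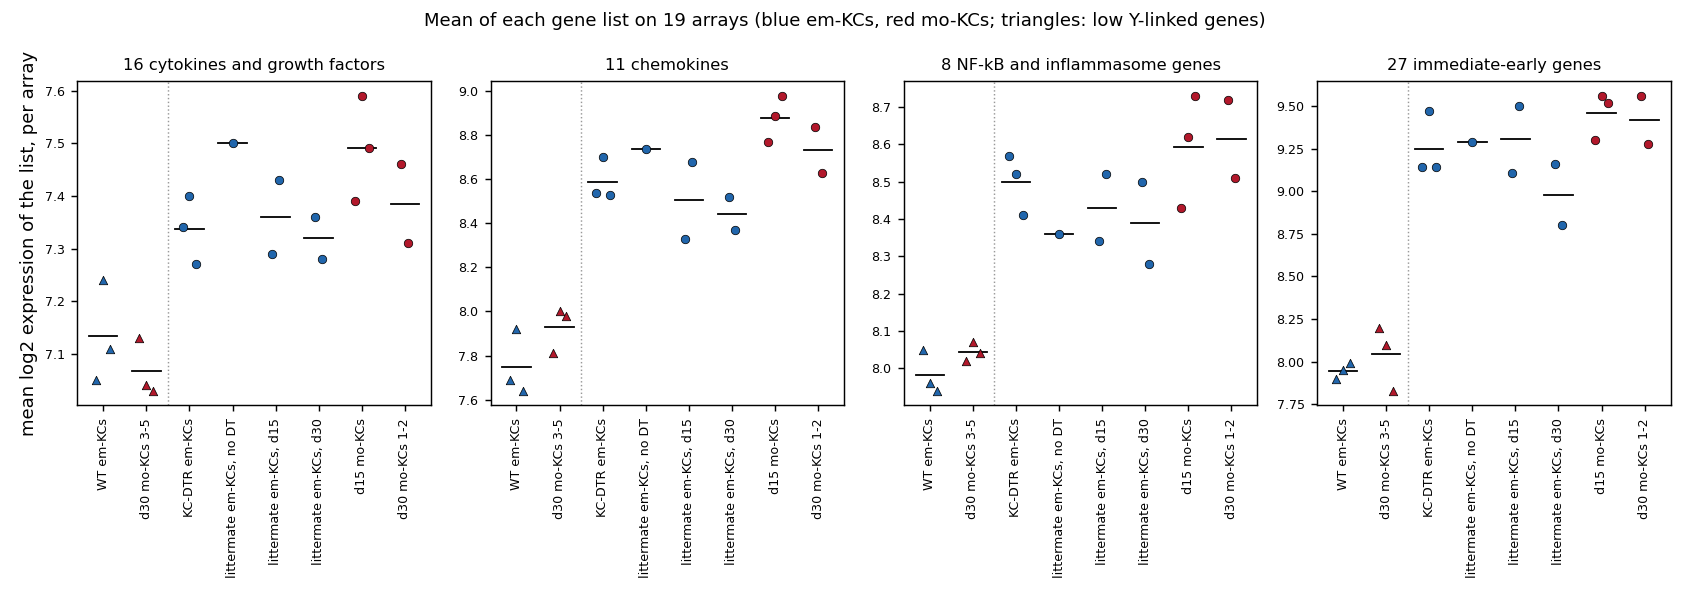
Mean log2 expression per array (vertical) of the 16 cytokines and growth factors, the 11 chemokines, the 8 NF-kB and inflammasome genes and, for comparison, 27 immediate-early genes, by condition (horizontal). Each point is 1 array, blue for em-KCs and red for mo-KCs, triangles are the 6 low-Y arrays left of the dotted line, and bars are condition means. In all 4 panels the 6 low-Y arrays lie below the other 13.

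The chemokines included the members with the largest differences. Cxcl2, which attracts neutrophils, was 8.30 to 9.64 (median 9.11) in colony em-KCs and 5.16, 6.05 and 5.90 in WT em-KCs. In mo-KCs it was 9.09, 9.75 and 10.10 at day 15, 9.69 and 8.89 in day 30 replicates 1 and 2, and 5.40, 6.96 and 6.37 in replicates 3 to 5. Every low-Y array was thus below every high-Y array. Cxcl2 was 10.2-fold lower in WT than in colony em-KCs (log2 difference -3.35, standard error 0.34, adjusted p = 5.3e-06 from limma) and 8.28-fold lower in day 30 replicates 3 to 5 than in 1 and 2 (-3.05, standard error 0.46, adjusted p = 0.0015 from limma).

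Ccl3 and Ccl4, neighbouring genes whose products attract monocytes and T cells, had the same order of arrays. Ccl3 was 10.12 to 10.76 (median 10.57) in colony em-KCs, 9.08, 8.40 and 7.43 in WT em-KCs, 10.96, 11.39 and 11.23 in day 15 mo-KCs, 11.44 and 10.99 in day 30 replicates 1 and 2, and 8.82, 8.70 and 7.47 in replicates 3 to 5. Ccl4 was 8.79 to 9.53 (median 9.17), 7.75, 7.95 and 6.72, 9.93, 10.30 and 10.11, 10.34 and 9.60, and 7.99, 8.68 and 7.62 in the same order. For both genes the low-Y arrays were below all high-Y arrays, and the 5 high-Y mo-KC arrays were above all 8 colony em-KC arrays. Between the array sets Ccl3 was 4.63-fold lower in WT than in colony em-KCs (adjusted p = 5.9e-05 from limma) and 7.40-fold lower in replicates 3 to 5 than in 1 and 2 (adjusted p = 8e-04 from limma). Ccl4 was 3.28-fold and 3.66-fold lower (adjusted p = 0.00014 and 0.0044 from limma).

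Cxcl1, another neutrophil chemokine, was 7.56 to 8.23 (median 8.03) in colony em-KCs, 7.29, 7.24 and 7.23 in WT em-KCs, 8.03, 8.48 and 8.09 in day 15 mo-KCs, 8.21 and 7.81 in day 30 replicates 1 and 2, and 7.19, 7.17 and 7.42 in replicates 3 to 5. It was 1.63-fold lower in WT than in colony em-KCs (adjusted p = 0.0013 from limma) and 1.68-fold lower in replicates 3 to 5 (adjusted p = 0.0204 from limma). Cxcl3, the paralogue with the same kappaB stretch, stayed between 4.87 and 5.35 on all 19 arrays, below the median gene of 6.05. Its difference between WT and colony em-KCs was 0.23 on the log2 scale, higher in WT em-KCs (adjusted p = 0.0455 from limma), a call that was lost under most alternatives, and between the day 30 arrays no difference was called. These families share sequence, and cross-hybridization of their probes was not tested.

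The other chemokines did not share this pattern. Ccl12, a ligand of CCR2, was 6.30 to 7.75 (median 6.90) in colony em-KCs and 5.37, 6.16 and 6.48 in WT em-KCs, a 1.94-fold lower level (adjusted p = 0.0045 from limma), but in day 30 mo-KCs it was 6.46 and 6.92 in replicates 1 and 2 and 6.92, 6.76 and 7.22 in replicates 3 to 5. Those day 30 values overlapped, and no difference was called. Cxcl9, an interferon-gamma-induced chemokine, was 11.15, 11.29 and 11 in WT em-KCs against 10.23 to 10.93 (median 10.51) in colony em-KCs, 1.49-fold higher (adjusted p = 0.0188 from limma). Cxcl10, Ccl2, Ccl5 and Ccl7 passed no test in any comparison, with ranges over the 19 arrays of 1.28, 0.79, 0.90 and 1.49.

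Among the cytokines, both IL-1 genes and Tnf were lower on all 6 low-Y arrays. Il1b, the secreted form of IL-1, was 10.98 to 11.63 (median 11.24) in colony em-KCs, 9.85, 10.44 and 10.18 in WT em-KCs, 11.47, 11.91 and 11.68 in day 15 mo-KCs, 11.57 and 11.50 in day 30 replicates 1 and 2, and 10.39, 10.15 and 9.91 in replicates 3 to 5. That was 2.16-fold lower in WT than in colony em-KCs (log2 difference -1.11, standard error 0.14, adjusted p = 5.3e-05 from limma) and 2.63-fold lower in replicates 3 to 5 (-1.39, standard error 0.20, adjusted p = 0.00093 from limma). Tnf was 7.97 to 9.16 (median 8.38) in colony em-KCs, 7.57, 7.52 and 7.29 in WT em-KCs, 8.35, 8.62 and 9.21 in day 15 mo-KCs, 9.42 and 8.67 in day 30 replicates 1 and 2, and 7.64, 7.24 and 7.64 in replicates 3 to 5. The 2 sets of arrays did not overlap, and the differences were 2.02-fold (adjusted p = 0.0011 from limma) and 2.91-fold (adjusted p = 0.0026 from limma). Il1a, the cell-associated form, was 1.54-fold and 1.72-fold lower (adjusted p = 0.00037 and 0.0038 from limma), at 9.58 to 9.95 on the low-Y and 10.33 to 10.79 on the high-Y arrays. Il1rn, the natural antagonist of IL-1, was 8.25, 9.25 and 8.89 in WT em-KCs and within 8.50 to 9.28 on the other arrays, and was called in no comparison.

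Il6, which drives the hepatic acute-phase response, was 6.55 to 7.34 (median 7.08) in colony em-KCs and 4.83, 6.41 and 4.78 in WT em-KCs, 3.26-fold lower (adjusted p = 0.00039 from limma). In day 30 mo-KCs it was 7.12 and 6.40 in replicates 1 and 2 and 5.61, 5.44 and 6.27 in replicates 3 to 5, which did not overlap but differed by an amount that was not called (log2 difference -0.99, standard error 0.38, adjusted p = 0.129 from limma). Il10, which restrains inflammatory mφs, was 6.56 to 7.61 (median 7.19) in colony em-KCs and 6.24, 5.75 and 6.49 in WT em-KCs, 1.94-fold lower (adjusted p = 0.0094 from limma). Its day 30 values of 7.25 and 6.81 in replicates 1 and 2 and 6.92, 6.21 and 5.97 in replicates 3 to 5 overlapped.

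Vegfa, the vascular growth factor, went the other way and only among em-KCs. It was 7.34, 7.16 and 7.11 in WT em-KCs, above the 6.23 to 6.50 (median 6.42) of colony em-KCs, and it was 6.75, 6.28 and 6.48 in day 15 mo-KCs, 6.54 and 6.47 in day 30 replicates 1 and 2, and 6.29, 5.96 and 6.41 in replicates 3 to 5. The WT arrays therefore lay above all 16 others. Vegfa was 1.76-fold higher in WT than in colony em-KCs (adjusted p = 7.2e-05 from limma). Ebi3, a subunit of IL-27 and IL-35, was 9.50, 9.15 and 9.66 in WT em-KCs, 8.94 to 9.30 (median 9.08) in colony em-KCs and 8.81, 8.97 and 8.69 in day 30 replicates 3 to 5, with a 1.28-fold difference between the em-KC sets (adjusted p = 0.0162 from limma). Lif, an IL-6 family cytokine, was 5.15, 5.10 and 5.43 in WT em-KCs against 4.54 to 4.99 (median 4.88), 1.32-fold higher (adjusted p = 0.0088 from limma) at a level below the median gene.

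Of the NF-kB and inflammasome genes, Nfkbiz, Tnfaip3 and Nlrp3 followed Cxcl2. Nfkbiz encodes IkB-zeta, a nuclear partner needed for a second wave of targets, and was 8.69 to 9.72 (median 9.24) in colony em-KCs, 8.01, 7.87 and 7.72 in WT em-KCs, 9.46, 9.87 and 9.98 in day 15 mo-KCs, 10.11 and 9.41 in day 30 replicates 1 and 2, and 8.30, 8.40 and 8.22 in replicates 3 to 5. It was 2.53-fold lower in WT than in colony em-KCs and 2.73-fold lower in replicates 3 to 5 (adjusted p = 4.6e-05 and 0.0022 from limma). Tnfaip3 encodes A20, the deubiquitinase that shuts NF-kB signalling off, and was 7.36 to 8.50 (median 8.01), 6.85, 6.93 and 6.89, 8.01, 8.22 and 8.38, 8.45 and 7.79, and 6.74, 7.08 and 6.66 in the same order, 2.14-fold and 2.45-fold lower on the low-Y arrays (adjusted p = 0.00011 and 0.0025 from limma). Nlrp3, the inflammasome sensor that leads to release of mature IL-1beta, was 1.67-fold and 2.00-fold lower (adjusted p = 0.0014 and 0.0058 from limma), at 7.28 to 7.84 on the low-Y and 8.07 to 8.73 on the high-Y arrays. For each of these 3 genes the low-Y arrays lay below all others.

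The NF-kB subunits among the members differed less. Rela, a further subunit gene outside the members, was 1.49-fold lower in day 30 replicates 3 to 5 than in WT em-KCs (adjusted p = 0.0087 from limma). In that comparison 15.4% of all genes were called. Between WT and untreated KC-DTR em-KCs Rela was not called (log2 difference 0.147, adjusted p = 0.493 from limma). Rel, which encodes c-Rel, was 9.21, 8.87 and 9.11 in WT em-KCs against 9.11 to 9.57 (median 9.54) in colony em-KCs, 1.34-fold lower (adjusted p = 0.007 from limma), and was 9.48 and 9.52 in day 30 replicates 1 and 2 and 9.15, 9.31 and 9.67 in 3 to 5. Nfkb2 and Relb, the pair of the non-canonical pathway, and the NF-kB target Tnfaip2 were called in no comparison and spanned 0.67, 0.49 and 0.67 over the 19 arrays. Cd40, a TNF receptor family member that engages the non-canonical pathway, was 8.65, 8.47 and 8.55 in WT em-KCs and 8.13 to 8.41 (median 8.30) in colony em-KCs, 1.21-fold higher (adjusted p = 0.0374 from limma).

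**Figure D2:**
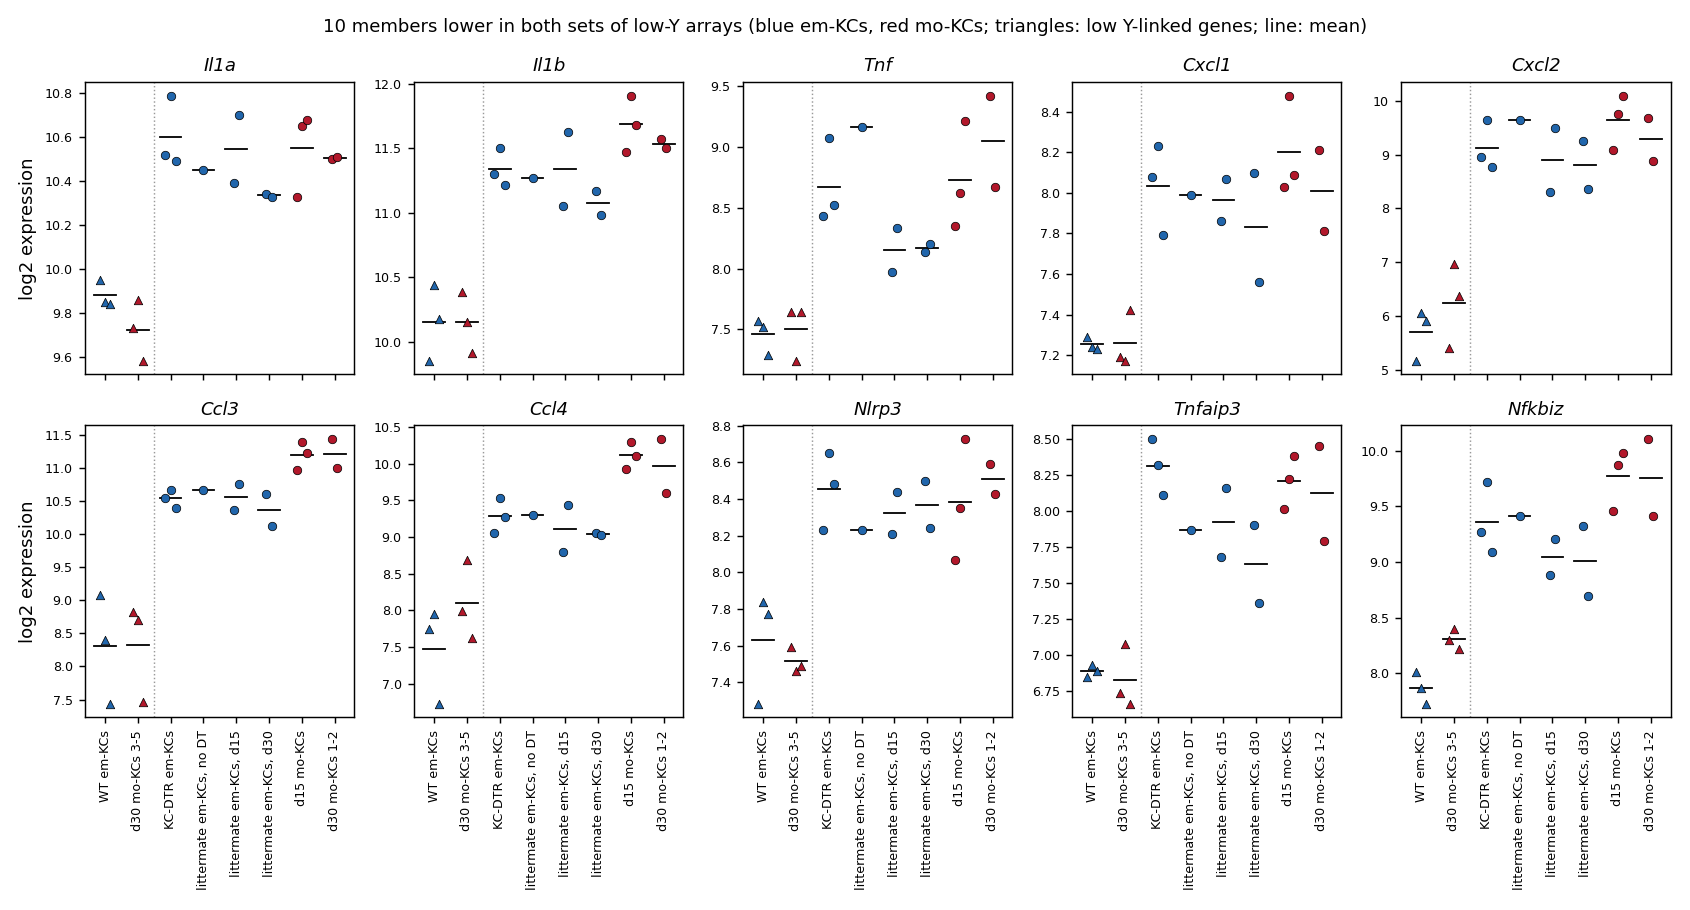
Log2 expression (vertical) of the 10 members that were lower in both comparisons between the array sets, by condition (horizontal). Each point is 1 array, blue for em-KCs and red for mo-KCs, triangles are the 6 low-Y arrays and bars are condition means. In every panel the 6 triangles lie below the 13 circles, and in the panels of Ccl3 and Ccl4 the 5 red circles also lie above the 8 blue ones.

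In all, 20 of 35 members were called between WT and colony em-KCs, 14 lower and 6 higher, where 22.2% of all genes were called (12.7% lower and 9.49% higher). Between day 30 replicates 3 to 5 and 1 and 2, 10 members were called, each lower, where 6.71% of all genes were called (4.55% lower). All 10 were among the 14, namely Il1a, Il1b, Tnf, Cxcl1, Cxcl2, Ccl3, Ccl4, Nlrp3, Tnfaip3 and Nfkbiz, and 2.66% of all genes were lower in both comparisons, which share no array. For the same 10 members the 6 low-Y arrays were all below the 13 others, as for 2.48% of all genes. The median log2 difference was -0.16 among em-KCs and -0.27 among day 30 mo-KCs over the members, beside 0.04 and 0.00 over all genes. Without day 30 replicate 1, 4 members (Il1a, Il1b, Cxcl2 and Ccl3) were called between the day 30 arrays, and without replicate 2, 7 were, Il1a, Cxcl1 and Nlrp3 being lost. Cxcl1 was also lost without replicate 4. Among em-KCs the calls of Ebi3, Cxcl9 and Cd40 were lost without WT replicate 1, those of Il10, Rel, Cxcl3 and Cxcl9 without replicate 2, and those of Ebi3, Lif, Cxcl3 and Cd40 without replicate 3.

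The WT arrays alone were below all colony arrays for 12 members, as for 9.28% of all genes, and day 30 replicates 3 to 5 were below 1 and 2 for 17 members, as for 20.7%. Of the 8 members lower in both that have a promoter window, Cxcl1, Cxcl2, Nlrp3 and Tnfaip3 had a kappaB match. Members with a match that were not lower, such as Cxcl3, Cxcl10, Csf1, Tnfaip2 and Nfkb2, and members without one that were, such as Il1b and Ccl3, were both present.

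**Figure D3:**
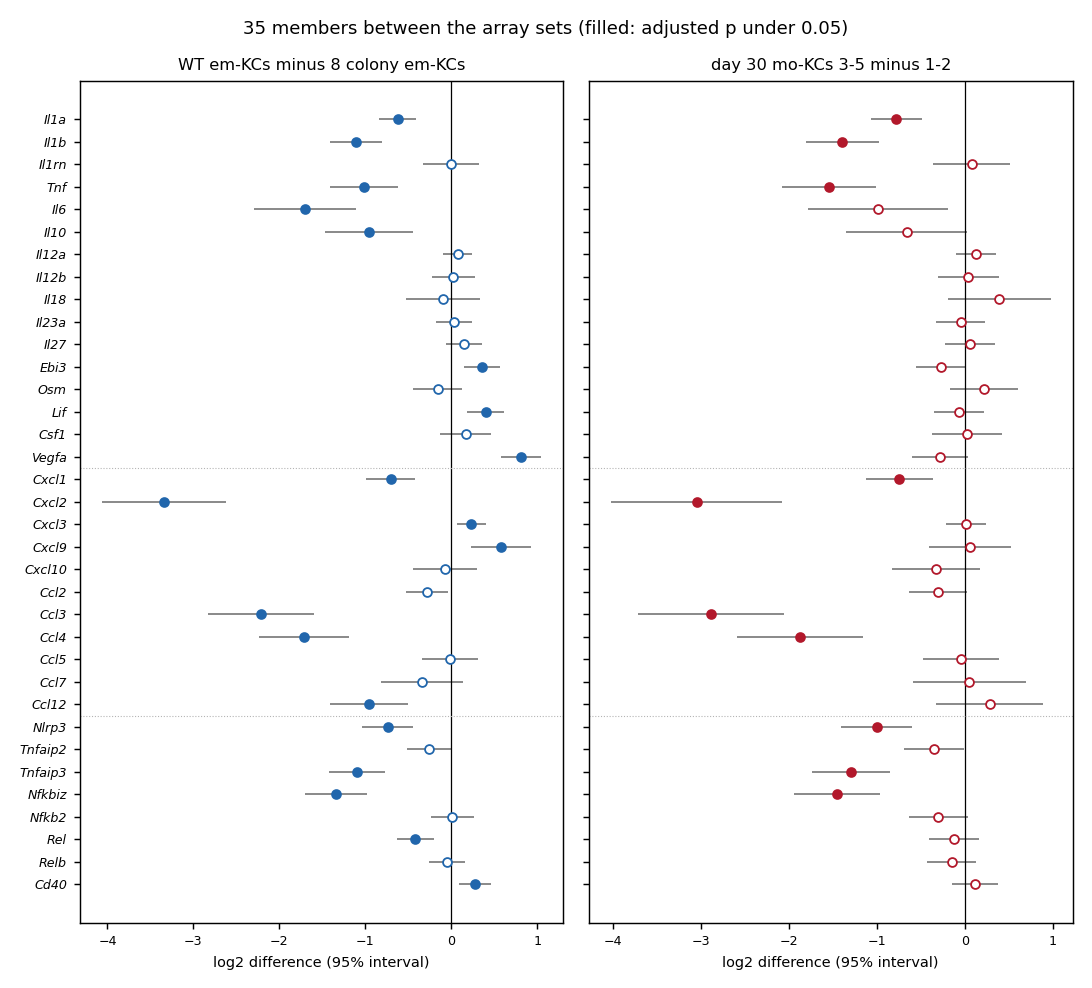
Log2 difference with its 95% confidence interval (horizontal) for each of the 35 members (vertical, ordered by role), between WT and colony em-KCs at the left and between day 30 mo-KC replicates 3 to 5 and 1 and 2 at the right. Filled points had an adjusted p under 0.05 in limma, 20 at the left and 10 at the right. Cxcl2, Ccl3 and Ccl4 lie farthest to the left in both panels, and Vegfa lies to the right of 0 in the left panel only.

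A test of whether the difference between the array sets was itself different in em-KCs and in day 30 mo-KCs called 2 members, where 3.71% of all genes were called. These were Vegfa and Ebi3. For both, the low-Y arrays were on average higher than the high-Y arrays among em-KCs and lower among day 30 mo-KCs. The signed log2 differences of the classes thus differed by 1.095 for Vegfa (adjusted p = 0.0046 from limma). They differed by 0.635 for Ebi3 (adjusted p = 0.0445 from limma). For Ccl12 the difference of differences was -1.24 with an adjusted p of 0.0685 from limma.

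Transcripts outside the group moved with the same arrays. The immediate-early genes, which are induced within minutes by many stimuli and by cell isolation, had 18 of 27 members lower in WT than in colony em-KCs and 19 of 27 lower in day 30 replicates 3 to 5 than in 1 and 2, and their mean was 7.83 to 8.20 on the low-Y and 8.80 to 9.56 on the high-Y arrays. Egr1 was 7.92-fold and Fos 6.09-fold lower in WT than in colony em-KCs, and 10.5-fold and 7.44-fold lower in replicates 3 to 5 (adjusted p between 8.9e-08 and 2e-05 from limma). Hepatocyte transcripts had 11 of 12 members higher in WT em-KCs, with a mean of 10.56 to 10.64 against 8.55 to 9.53 in colony em-KCs. In day 30 replicates 3 to 5, 6 were higher and 1 lower, with a mean of 8.87 to 9.72 against 8.22 to 8.26 in replicates 1 and 2. Endothelial genes had 3 of 11 lower in WT em-KCs and 5 of 11 lower in replicates 3 to 5. Beside these counts, 12.7% of all genes were lower and 9.49% higher in WT than in colony em-KCs. Between the day 30 arrays 6.71% of all genes were called, and 4.55% were lower in replicates 3 to 5. The part of these transcripts, of sex and of batch in the results on the members was not tested.

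Other genes of the pathway were taken from wider lists. Among 39 further NF-kB genes, 11 were lower and 3 higher in WT than in colony em-KCs (12.7% and 9.49% of all genes), and 3 were lower in day 30 replicates 3 to 5 (4.55%). Those 3 were lower in both, namely Nfkbia, the IkB-alpha inhibitor (1.31-fold and 1.47-fold, adjusted p = 0.0254 and 0.0435 from limma), Nfkbid, a nuclear IkB protein (1.80-fold and 2.26-fold, adjusted p = 0.004 and 0.0109 from limma), and the early response gene Ier3 (2.20-fold and 2.88-fold, adjusted p = 0.0032 and 0.0113 from limma). The direction on this list was not uniform. Against untreated KC-DTR em-KCs alone, Bcl3 and Traf1 were 1.76-fold and 1.36-fold higher in WT em-KCs (adjusted p = 0.00069 and 0.0392 from limma). Otulin and Birc2 were 1.81-fold and 1.69-fold lower in that comparison (adjusted p = 0.00034 and 0.0026 from limma). The adaptor Myd88, which carries the signal of IL-1 and Toll-like receptors, was 1.30-fold lower in WT than in colony em-KCs, and the TNF receptor genes Tnfrsf1a and Tnfrsf1b were 1.23-fold and 1.26-fold higher (adjusted p = 0.0241, 0.0254 and 0.0032 from limma). Together with Stat3 (1.24-fold lower, adjusted p = 0.0395 from limma) they were the 4 of 23 receptor and signalling genes called there, a smaller share than the 22.2% of all genes. Of 10 further inflammasome genes Casp1 and Aim2 were lower there, 1.30-fold and 1.29-fold (adjusted p = 0.0359 and 0.0091 from limma), where 12.7% of all genes were lower.

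The question of the arrays was whether mo-KCs differ from em-KCs. With all 19 arrays in 1 fit of 3 classes, no member was called at day 15, at day 30 or between the days, where 0.502%, 0.787% and 0.0201% of all genes were called. At an unadjusted p under 0.05 there were 7, 3 and 11 of 35 members in limma, beside 6.05%, 13% and 5.08% of all genes. The methods' t-test called 0 members after Benjamini-Hochberg adjustment in each of these comparisons. Before adjustment it had 4, 2 and 2 members under 0.05, where 1251, 2365 and 782 of the 19938 genes were. At day 15, 29 of 35 members had a positive difference, with a median of 0.21 beside -0.01 over all genes, and at day 30 the median was -0.08 beside -0.02, with 15 positive. The day 30 and day 15 comparisons share the em-KC arrays, and 3 of the 5 day 30 arrays but 3 of the 11 em-KC arrays were low-Y. Once the fit blocked on array set, the day 30 direction turned, to a median of 0.06 beside -0.02 with 24 of 35 positive, while at day 15 the median was 0.20 beside -0.01 with 28 positive. The day 15 arrays were all high-Y, so that without the block the comparison between the days also crossed the array sets. With the block its median was -0.165 beside -0.009 over all genes, with 7 of 35 positive and 0 called. The spread between the array sets enters these fits, so that the intervals were wide: Cxcl2 had 1.51 (95% interval -0.38 to 3.39) at day 15 and -0.68 (-2.24 to 0.88) at day 30, and in the blocked fit 0.62 (-0.05 to 1.29) and 0.38 (-0.19 to 0.95). Without the block the interval lay within 1.5-fold for 16 members at day 15 and for 21 at day 30.

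Within the high-Y arrays the intervals were narrower. Against the 8 colony em-KCs 0 of 35 members were called in day 15 mo-KCs, where 0.923% of all genes were, and 9 had an unadjusted p under 0.05, as 6.45% of all genes did. The largest difference was that of Ccl4, 1.90-fold higher (log2 difference 0.92, 95% interval 0.40 to 1.45, adjusted p = 0.136 from limma), followed by Ccl3 at 0.68 (0.06 to 1.29) and Cxcl2 at 0.59. Nfkbiz was 1.48-fold higher (adjusted p = 0.232 from limma), and Il18, which needs the inflammasome for its release, had -0.47 (adjusted p = 0.683 from limma). In day 30 replicates 1 and 2 no member was called either, where 0.221% of all genes were, and Ccl4 had 0.78 (0.16 to 1.40) and Nfkbiz 0.56 (0.14 to 0.98). With the array set as a block in the fit of 3 classes, Ccl4 had 0.91 at day 15 (adjusted p = 0.068 from limma) and 0.71 at day 30 (adjusted p = 0.053 from limma), and Nfkbiz 0.56 and 0.50 (adjusted p = 0.219 and 0.061 from limma). Ccl3, Ccl4 and Cd40 were the 3 members for which all 5 high-Y mo-KC arrays lay above all 8 colony em-KC arrays, as was so for 0.537% of all genes.

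Within the low-Y arrays, 4 members were called between day 30 replicates 3 to 5 and WT em-KCs, where 15.4% of all genes were called. Vegfa was 1.98-fold, Ebi3 1.53-fold and Lif 1.40-fold lower (adjusted p = 0.00016, 0.0027 and 0.0112 from limma), and Ccl12 was 1.95-fold higher (adjusted p = 0.0185 from limma). Arrays of WT em-KCs also enter the comparison with colony em-KCs, where the same 4 genes were called, and in the fit of the 6 arrays alone Vegfa was the 1 member called. Ccl4 had 0.62 and Nfkbiz 0.45 there, neither of them called (adjusted p = 0.178 and 0.159 from limma). Beside these values, the hepatocyte mean was 8.87 to 9.72 in replicates 3 to 5 and 10.56 to 10.64 in WT em-KCs, and its part in them was not tested.

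**Figure D4:**
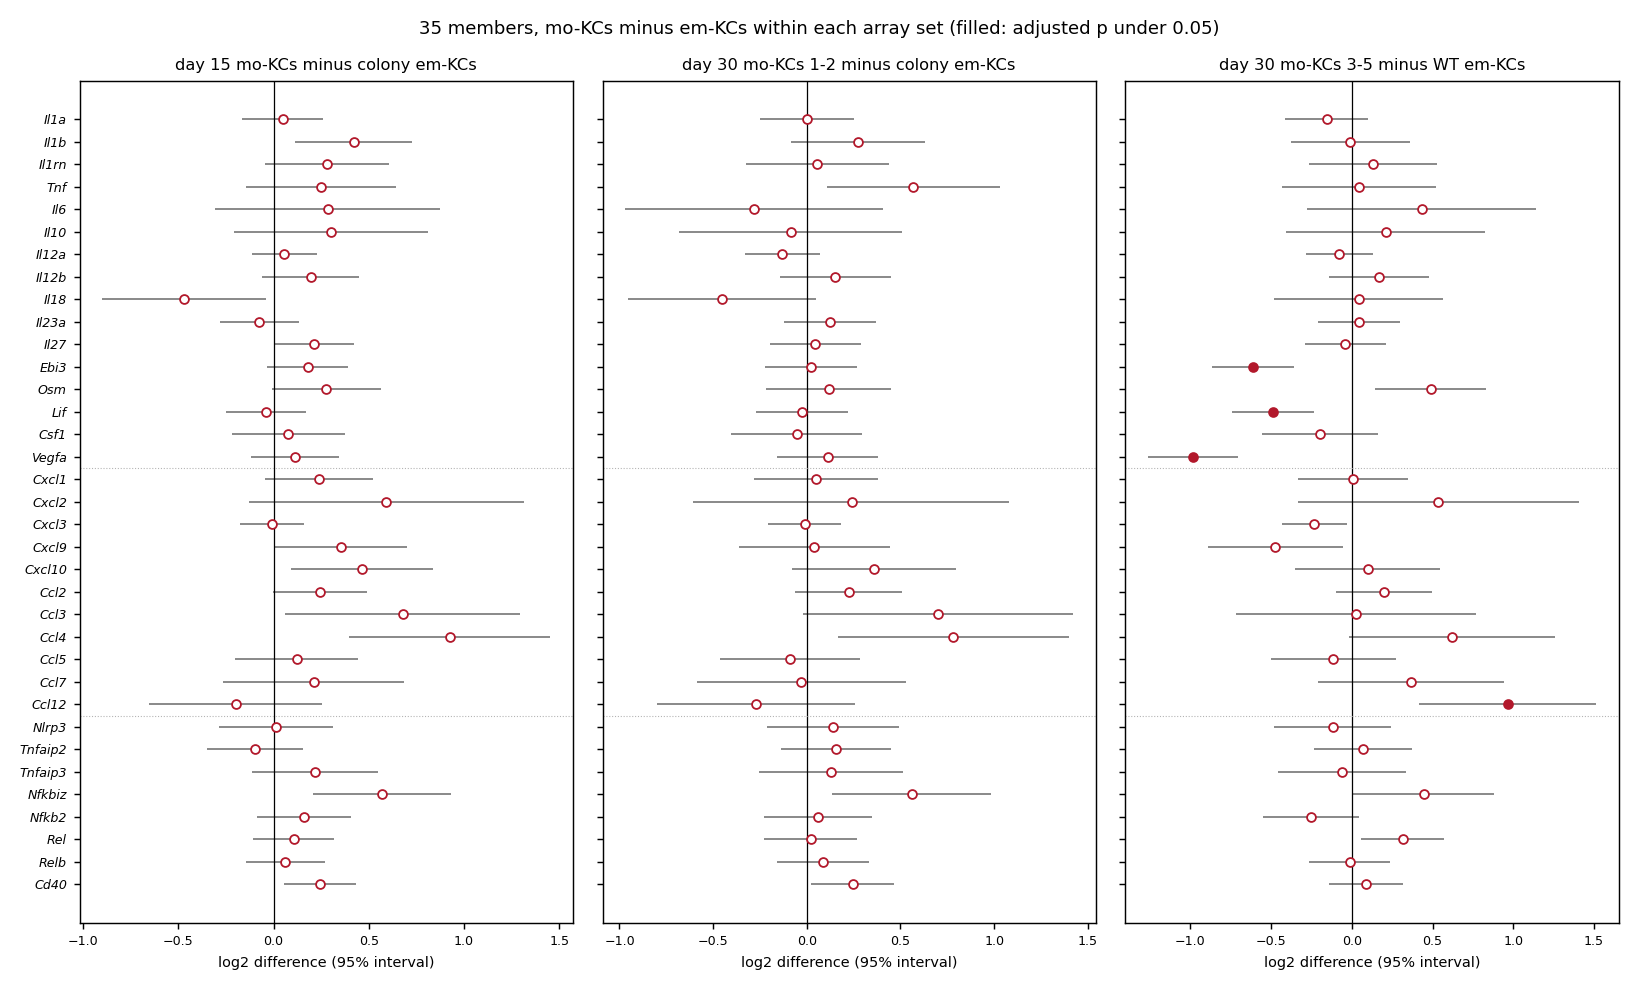
Log2 difference with its 95% confidence interval (horizontal) of the 35 members (vertical, ordered by role) between mo-KCs and em-KCs of the same array set. From left to right are day 15 mo-KCs and day 30 mo-KC replicates 1 and 2 against colony em-KCs and day 30 replicates 3 to 5 against WT em-KCs, and filled points had an adjusted p under 0.05 in limma, 0, 0 and 4 of 35. Ccl4 lies to the right of 0 in each panel, by 0.92, 0.78 and 0.62.

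The knock-in cassette was examined in em-KCs of the same colony, but not apart from DT. The KC-DTR mice had no DT, while the littermates at day 15 and day 30 had received it. Only 1 littermate array was untreated, so cassette and DT cannot be told apart in this comparison. Between untreated KC-DTR mice and the 5 littermates 0 of 35 members were called (0% of all genes), and 4 had an unadjusted p under 0.05, as 4.99% of all genes did. Tnfaip3 had the largest difference, 8.50, 8.32 and 8.11 in KC-DTR em-KCs against 7.87 in the untreated littermate, 7.68 and 8.16 in littermates at day 15 and 7.90 and 7.36 at day 30, a log2 difference of 0.52 (95% interval 0.16 to 0.87, adjusted p = 0.896 from limma). The groups overlapped. The interval lay within 1.5-fold for 25 of 35 members.

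In all, 15 members were called in no comparison, and their ranges over the 19 arrays ran from 0.35 to 1.49 on the log2 scale. They were Il1rn, Il12a, Il12b, Il18, Il23a, Il27, Osm, Csf1, Cxcl10, Ccl2, Ccl5, Ccl7, Tnfaip2, Nfkb2 and Relb. Il12a, Il12b and Il23a, the subunits of IL-12 and IL-23, lay at 4.80 to 5.15, 5.54 to 6.21 and 4.76 to 5.15. With Osm, Lif and Cxcl3 they were the 6 members with a mean below the median gene. Csf1, which encodes the growth factor KCs depend on, lay at 6.19 to 7.05, and Il27 at 6.99 to 7.65, with no array set apart.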

How the data were processed

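KCs sorted from livers of 19 samples were measured on 1 array each. The values deposited by the authors are log2 expression, 1 value per probeset and array, from Robust Multi-array Average (RMA, named in the submitters' processing notes), whose quantile step makes the arrays' distributions alike; the sources used here give no software version. Values ran from 1.71 to 14.38 and no pair of arrays was identical. Of 35556 probesets 21789 had 1 gene symbol, 1621 several and 12146 none, and only the first kind was used, with the probeset of highest mean per gene (each member had 1).

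Limma 3.58.1 in R 4.3.3 (lmFit and eBayes, two-sided) was fitted to all 19938 genes, with Benjamini-Hochberg adjustment and a threshold of 0.05. Mo-KCs and em-KCs were compared in 1 fit of 3 classes, and the array sets, the knock-in and the values within sets in 1 fit of 8 cells (the 7 conditions, with day 30 replicates 1-2 and 3-5 apart). The fit was tested on simulated data, but the outcome is not given here. P-values measure the spread between these arrays, whose number limits the precision. Named were all members, those called or with a range over 2 with their values, and up to 4 called genes of each other list. The members and lists were chosen with earlier results of these data known. Alternatives covered the probeset, a dim filter, centring, the variance model, array weights, blocks, the em-KC arrays, the methods' t-test and leaving out each array. Promoters came from RefSeq.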

Additional observations from a re-analysis of the deposited data

Results flagged for a closer look

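The difference between the array sets was itself different in em-KCs and in day 30 mo-KCs for 2 members (limma, test of the difference of differences). For Vegfa, WT em-KCs were above colony em-KCs while day 30 replicates 3 to 5 were not above 1 and 2, and the differences differed by 1.095 on the log2 scale (adjusted p = 0.0046 from limma). For Ebi3 they differed by 0.635 (adjusted p = 0.0445 from limma), a call lost with centred arrays and without any one of most arrays. In 35 checks of the 5 day 30 mo-KC arrays, 1 for each member, 0 single arrays stood apart from the others, where chance gives about 5%. A check for single arrays cannot show the split of these arrays into replicates 1 and 2 and replicates 3 to 5, so it does not show that they were alike.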

How the results depend on the processing

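The 0 members called in mo-KCs against em-KCs at day 15, between the days and in untreated KC-DTR against littermate em-KCs stayed at 0 under every alternative run. At day 30 the count became 1 against colony em-KCs alone (Il6, lower, where 3 of the 5 day 30 arrays and none of the em-KC arrays were low-Y; with the array set as a block Il6 had 0.06, adjusted p = 0.908 from limma), 1 within the 6 low-Y arrays (Vegfa, lower) and, in a comparison chosen after seeing the data, 4 for replicates 3 to 5 against WT em-KCs in the fit of 8 cells. Leaving out each array in turn gave 0 to 0 in these class comparisons, 16 to 20 between WT and colony em-KCs, 4 to 11 between the day 30 arrays (4 without replicate 1, 7 without replicate 2) and 1 to 3 for the difference of differences, which was 1 with centred arrays. Between WT and colony em-KCs the other alternatives gave 17 to 20 calls. With the replicate number as a block (replicate block), 20 members were called there and 0 in each class comparison. The median correlation of same-numbered deviations was 0.018 over 36 pairs, and 5 pairs were over 0.1. For different numbers the median was -0.005 over 96 pairs, and 3 pairs were over 0.1. These values do not settle whether the numbers paired samples. No called gene reversed. Of 826 gene values under alternatives 767 kept their call and 59 lost it, 17 of them for Cxcl3 and 17 for Ebi3 in the difference of differences, and the cause was not tested. Dim genes limit what can be seen, and few arrays limit small differences.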

Other observations

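Outside the members, Ptgs2, which encodes the prostaglandin synthase COX-2 and stood in the wider NF-kB list, was 2.94-fold higher in day 15 mo-KCs than in colony em-KCs (log2 difference 1.56, standard error 0.13, adjusted p = 2.3e-06 from limma), and it was the 1 gene of 39 on that list called there. In the same comparison 0.923% of all genes were called. The monocyte genes Ccr2 and Cx3cr1 were 7.79-fold and 6.01-fold higher there (adjusted p = 2.4e-07 and 5.2e-07 from limma). From the same monocyte list Plac8 (log2 difference 0.61), Vcan (0.10), Chil3 (-0.003), F13a1 (-0.15) and S100a4 (-0.61) were not called. The KC gene Timd4 was 13.4-fold lower (adjusted p = 8.5e-13 from limma), and 0 of 10 neutrophil genes were called.

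Of 16 interferon-stimulated genes 4 were lower in WT than in colony em-KCs (12.7% of all genes), and 0 were called between the day 30 arrays by limma (6.71% of all genes), where 4 had an unadjusted p under 0.05. Their mean was 8.57 to 9.26 on the low-Y and 8.81 to 9.26 on the high-Y arrays, which overlapped. Neutrophil genes had a mean of 5.50 to 5.78 and 5.40 to 5.74, with 0 of 10 called among em-KCs and 1 (Csf3r, lower) among day 30 mo-KCs.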
